A study of Mus musculus with 25 samples.

Results

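Loss of the Hippo kinases LATS1 and LATS2 was compared with forced expression of their substrate YAP in mouse hepatocytes, gene by gene, as a difference of differences. For each gene the knockout response was the log2 difference of Lats1/2 KO (n = 3) from Lats1/2 flox ctrl (n = 4), and the Yap response was the log2 difference of ApoYap Dox (n = 3) from ApoYap ctrl (n = 4). The quantity reported is the knockout response less the Yap response, so a positive difference means that the gene stood higher, relative to its own controls, after the knockout than after Yap induction. These groups hold 14 of the series' 25 libraries, and all 12970 genes that passed a filter on low counts entered, out of 37117 symbols. The libraries were taken by group label, and no measured value entered that rule. This comparison and the gene lists were chosen with earlier results of these data known.

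The knockout mice carry floxed alleles of both kinase genes (Lats1flox/flox; Lats2flox/flox). They received an adeno-associated virus of serotype 8 by tail vein with Cre under the hepatocyte-restricted TBG promoter, and were sampled 1 week later. The ApoYap mice carry ApoE-rtTA and TRE-hYAP, a human YAP transgene switched on by doxycycline through an activator under the ApoE promoter. They drank 0.2 mg/ml doxycycline with 2.5% sucrose for 1 week. Controls of each strain were untreated, with neither virus nor doxycycline, so each response holds the agent together with the genetic change. C57BL/6 mice given either agent were sequenced too, but those given the virus were taken after 24 hours, not 1 week. Hepatocytes were isolated by liver perfusion and low-speed spins, and 500000 sorted cells were lysed per sample. The labels state no age, sex, batch or time of day. They do not say that replicates are separate animals, so p-values measure only the spread between these samples.

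In the Hippo pathway, MST kinases activate LATS1 and LATS2 with the help of the scaffold proteins SAV1 and MOB1. LATS kinases phosphorylate YAP and its relative TAZ, which holds them in the cytoplasm and marks them for breakdown. When the kinases are off, YAP and TAZ enter the nucleus, bind TEAD factors and switch on genes for growth, cytoskeleton and matrix. In liver, active YAP is known for driving hepatocyte division and for loss of the mature hepatocyte state. Deleting both kinases frees the cell's own YAP and TAZ, whereas the transgene adds YAP alone while the kinases are still present.

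Total counts ran from 9447816 to 16515330 per library. Composition differed between the groups: transcripts of the mitochondrial genome took 9.15% to 12.2% of counts in ApoYap Dox, 21.5% to 24.8% in ApoYap ctrl, 25.1% to 29.2% in Lats1/2 KO and 27.8% to 31.6% in Lats1/2 flox ctrl. Levels below are CPM, counts divided by library size, scaled by TMM, a method that sets the typical gene to no change, with factors of 1.68 to 1.84 in ApoYap Dox and 0.83 to 1.29 in the other 3 groups. Every result therefore holds relative to the typical gene. Scaled by total counts alone, the median difference over all genes moved from -0.01 to -0.45 on the log2 scale. Hepatocyte markers made up most of the marker signal in every library, but markers of macrophages and other liver cells rose with both treatments, and their values stand beside the results below.

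The targeted and induced genes were examined first. Lats1 (chr10:7681214-7716460, GRCm38), a kinase gene deleted in the knockout, was at 5.10, 4.79 and 2.97 CPM in Lats1/2 KO against 13.9, 12.3, 12.98 and 14.9 CPM in its controls. In the Yap strain Lats1 was at 9.11, 10.6 and 9.22 CPM with doxycycline and at 11.9, 12.9, 14.8 and 11.9 CPM without. The Lats1 groups did not overlap in either system, and the knockout libraries were the lowest of all. The knockout response of Lats1 was -1.67 (adjusted p = 4.1e-06) and its Yap response -0.42 (adjusted p = 0.0804; 0.50 under total counts), with a difference of -1.26 ± 0.30 (SE; adjusted p = 0.0027).

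Lats2 (chr14:57689662-57758388), the second kinase gene, did not show a fall of its 3′ signal in the knockout. It was at 7.70, 17.8 and 10.5 CPM in Lats1/2 KO against 13.06, 12.95, 13.7 and 13.02 CPM in the controls, so the knockout values lay on both sides of the controls. Lats2 was at 20.7, 24.9 and 24.4 CPM in ApoYap Dox, compared with 7.91, 8.80, 7.69 and 8.52 CPM in ApoYap ctrl, with no overlap. Lats2 is itself a YAP target gene, and its Yap response was 1.502 while the knockout response was -0.13 (adjusted p = 0.651). The difference was -1.63 ± 0.29 (adjusted p = 0.000107), and the untreated strains also differed, by 0.68 (flox above ApoYap, adjusted p = 0.0273). Where the floxed exons lie is not given in the sources used here, and a 3′ read outside the deleted part does not report on the deletion.

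Endogenous Yap1 was at 24.8, 20.2 and 16.99 CPM in ApoYap Dox, below all 4 of its controls at 41.0 to 46.9 CPM. In Lats1/2 KO it was at 31.2, 33.2 and 38.6 CPM, also below its controls at 41.4 to 45.4 CPM. The Yap response was -1.05 and the knockout response -0.33 (adjusted p = 0.0263), and under total counts the knockout value was 0.14. Its difference of 0.72 was 0.27 under total counts (adjusted p = 0.197). Human YAP reads were not analysed here as a separate gene. Wwtr1, which encodes TAZ, rose in both systems by close amounts, 0.71 and 0.80, with a difference of -0.09 (95% interval -0.63 to 0.46).

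The responses ran largely in parallel. Of 12970 genes, 4926 (38.0%) were called in the knockout, 2668 higher (20.6%) and 2258 lower (17.4%), at an adjusted p under 0.05 (edgeR quasi-likelihood test, Benjamini-Hochberg), and 8684 (67.0%) with Yap induction, 4536 higher (35.0%) and 4148 lower (32.0%). Leaving out Lats1/2 KO 2 took the lower count of the knockout to 1362. Of 4409 genes called in both, 4355 (98.8%) moved in the same direction. Of the genes called in the knockout, 88.4% were called in the same direction with Yap, and of the genes called with Yap, 50.1% were called in the same direction in the knockout. Across genes the responses had a Pearson r of 0.82 and a Spearman rho of 0.81, a description only, since genes are not independent and share the libraries.

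The size of the responses differed for many genes. The difference was called for 3863 genes (29.8%), 2261 higher (17.4%) and 1602 lower (12.4%), so 58.5% of these calls were higher. Under total counts alone the counts were 1174 and 3653, so that 24.3% were higher. No gene called under both scalings changed its sign. Of the genes called in both responses with the same sign, 1843 also differed between them, and the Yap response was the larger for 1816 of these and the knockout response for 27. The median gene that rose in both did so by 2.27 in the knockout and by 3.04 with Yap, and the median gene that fell in both had -0.68 and -1.47. Over all genes the 95% interval of the difference had a median half-width of 0.67, so smaller differences were mostly not detectable with these libraries. Of 144 genes reported below with a called difference, 21 lost the call under total counts and 42 net of the BL/6 controls. These losses stand beside the genes. For 25 of the 144 the untreated strains differed as well (given as flox less ApoYap controls). These strain values stand beside the genes too, except for Abcb11 (0.63), Arg1 (0.44), Foxa3 (0.53), Kmo (0.40), Onecut2 (0.48), Peg3 (0.94), Rhobtb1 (0.38) and Slco1a1 (0.77).

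**Figure D1:**
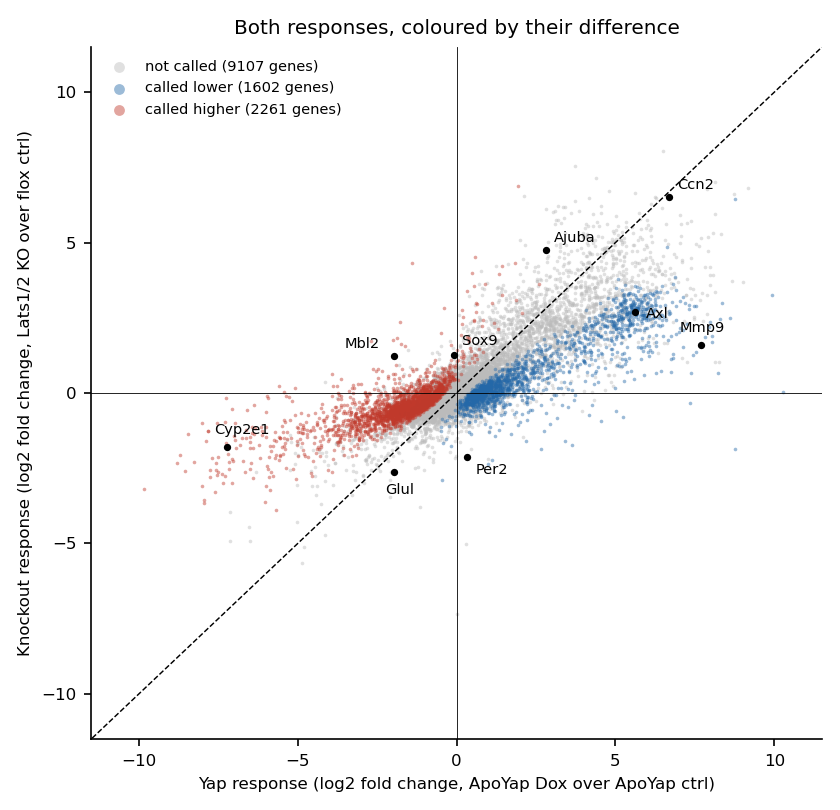
Knockout response (y axis) against Yap response (x axis), both in log2 units, for the 12970 genes tested; each point is a gene, coloured by whether the difference was called (2261 higher, 1602 lower, 9107 not called), and the dashed line marks equal responses. Most called genes lie between the dashed line and a flat line, on the side of the larger Yap response.

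Known YAP/TAZ target genes rose in both systems. Of 23 tested members, 18 were higher in the knockout and 19 with Yap, 16 of them in both; the medians were 2.13 and 2.05. The difference was called for 4 members upward and 4 downward, against 17.4% and 12.4% of all genes, and its median was -0.58 against -0.01 over all genes. The median of the differences is thus below 0 although the knockout median is the higher of the 2 medians. Promoters of 4 of these genes are shown because the genes rose in both systems and stand for the kinds of outcome described next: Ccn1 and Ankrd1, with no called difference, Ajuba, larger in the knockout, and Axl, larger with Yap. The sequences are RefSeq windows of 300 bases on GRCm38.p6, from 250 before to 50 after the gene's start, written 5′ to 3′ along the gene. Capitals mark GGAATG, or CATTCC for the same motif on the opposite strand, the core recognised by TEAD factors.
Ccn1 (chr3:145649936-145650235, minus strand): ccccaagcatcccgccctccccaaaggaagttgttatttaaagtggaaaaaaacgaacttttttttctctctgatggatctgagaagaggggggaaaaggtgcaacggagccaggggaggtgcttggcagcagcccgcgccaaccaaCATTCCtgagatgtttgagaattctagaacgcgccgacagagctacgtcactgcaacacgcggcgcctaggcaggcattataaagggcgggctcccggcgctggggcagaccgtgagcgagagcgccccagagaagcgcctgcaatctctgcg
Ankrd1 (chr19:36119795-36120094, minus strand): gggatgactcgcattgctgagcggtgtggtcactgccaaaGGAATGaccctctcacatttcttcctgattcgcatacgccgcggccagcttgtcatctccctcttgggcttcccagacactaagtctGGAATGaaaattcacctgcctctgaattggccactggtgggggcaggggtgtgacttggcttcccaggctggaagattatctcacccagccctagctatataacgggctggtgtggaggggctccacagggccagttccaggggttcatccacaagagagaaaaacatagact
Ajuba (chr14:54577612-54577911, minus strand): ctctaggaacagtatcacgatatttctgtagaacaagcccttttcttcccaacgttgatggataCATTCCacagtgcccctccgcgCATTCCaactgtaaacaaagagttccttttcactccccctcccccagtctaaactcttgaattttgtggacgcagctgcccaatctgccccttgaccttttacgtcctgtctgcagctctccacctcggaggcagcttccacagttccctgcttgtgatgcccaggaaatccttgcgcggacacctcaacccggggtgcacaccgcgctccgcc
Axl (chr7:25788684-25788983, minus strand): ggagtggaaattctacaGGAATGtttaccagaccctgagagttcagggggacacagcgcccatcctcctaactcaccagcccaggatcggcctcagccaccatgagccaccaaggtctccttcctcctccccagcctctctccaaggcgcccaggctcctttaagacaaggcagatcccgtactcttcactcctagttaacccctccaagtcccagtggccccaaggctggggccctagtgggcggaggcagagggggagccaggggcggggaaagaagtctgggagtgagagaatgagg

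The windows of Ccn1 and Axl hold 1 match each, and those of Ankrd1 and Ajuba hold 2. Such a match is common: 14.6% of all 22862 promoter windows and 11.8% of the 7950 matched windows of genes tested hold at least 1. The share was 13.6% among genes that rose in both systems, 14.6% among genes with a higher difference and 10.8% among genes with a lower difference. A match describes these letters only and is not shown here to be a site of binding.

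Ccn2 (chr10:24595442-24598683), a secreted matricellular protein and standard YAP readout, was at 62.5, 135.1 and 149.3 CPM in Lats1/2 KO against 1.19 to 1.32 CPM in its controls. In ApoYap Dox it was at 182.3, 176.7 and 160.6 CPM against 1.203 to 2.597 CPM. Every treated library was far above every control library in both systems, and all knockout libraries were below all Dox libraries. The responses were 6.51 and 6.69, and the difference was -0.18 ± 0.73 (95% interval -1.70 to 1.35; adjusted p = 0.887). Ccn1, another matricellular protein, had responses of 3.57 and 4.16 and a difference of -0.58 (95% interval -1.47 to 0.31). Amotl2, an adaptor that binds YAP, had 2.77 and 3.16; its difference of -0.39 was not called, but was under total counts (-0.83, adjusted p = 0.0189) and net of the BL/6 controls (-1.01, adjusted p = 0.0408). The responses of the cardiac and muscle repeat protein gene Ankrd1 were 2.94 and 4.89 with a wide interval of the difference, from -4.39 to 0.48. For these genes a shared rise was seen, and intervals of this width do not show that the responses were equal.

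Ajuba (chr14:54567472-54577558), a LIM-domain scaffold that restrains LATS kinases, had the larger rise in the knockout. It was at 37.4, 25.9 and 32.5 CPM in Lats1/2 KO against 0.11, 1.93, 1.31 and 1.38 CPM in the controls. With doxycycline, the ApoYap libraries were at 26.7, 37.3 and 19.7 CPM against 3.11, 4.61, 4.88 and 3.41 CPM. The treated libraries of the systems overlapped, and what differed was the level in the controls, which was lower in the flox strain (-1.75, adjusted p = 0.0036). The responses were 4.74 and 2.81 and the difference 1.94 ± 0.47 (adjusted p = 0.00278).

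Axl (chr7:25757273-25788705), a receptor tyrosine kinase, went the other way. It was at 26.3, 63.7 and 33.9 CPM in Lats1/2 KO against 4.34 to 9.66 CPM, and at 226.4, 201.0 and 321.6 CPM in ApoYap Dox, compared with 3.89 to 6.32 CPM. The control levels overlapped, and all Dox libraries were above all knockout libraries. The difference was -2.94 ± 0.62 (adjusted p = 0.00136). Axl and Myof, a membrane repair protein with a difference of -2.59 (adjusted p = 0.0107), are also made by macrophages, whose markers were higher in ApoYap Dox; their part in these differences was not tested. The other called targets were Lats2 and, close to the threshold, Crim1 (0.62; -0.12 net of the BL/6 controls), Nt5e (1.65), Rbms3 (1.87) and Asap1 (-0.62), named here because the count is small. The call of each of these last 4 was lost without any 1 of 8 or 9 of the 14 libraries. Those of Crim1, Nt5e and Rbms3 were lost under total counts too (0.17, 1.22 and 1.46), and those of Nt5e and Rbms3 net of the BL/6 controls (1.03 and 1.38).

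Among 35 Hippo kinases and adaptors, 4 had a higher and 7 a lower difference (11.4% and 20.0%, against 17.4% and 12.4% of all genes), with a median of -0.32. These shares lie close to those of all genes. Stk4, which encodes the upstream kinase MST1, was at 28.9, 24.9 and 24.98 CPM in Lats1/2 KO, within its controls at 19.4 to 31.1 CPM. In ApoYap Dox it was at 47.0, 46.3 and 57.8 CPM, above all controls at 20.9 to 22.8 CPM. Its difference was -1.17 (adjusted p = 6.29e-05). Mob1a, a co-activator of LATS kinases, differed in the same direction (0.41 and 1.56, difference -1.15, adjusted p = 5.37e-05). Stk38l, a kinase related to LATS, fell less in the knockout (-0.81 and -2.06), and Fat1, an atypical cadherin upstream of the pathway, had 0.22 and -1.07, a difference whose call was lost without ApoYap ctrl 3 or ApoYap Dox 3 (lowest value over all omissions 1.04), as well as under total counts (0.86) and net of the BL/6 controls (0.78). Tead1, which encodes a DNA-binding partner of YAP, rose by 1.68 and 1.63 (difference 0.05, 95% interval -0.75 to 0.85).

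Cell division genes rose strongly in both systems. Of 55 mitosis genes, 54 rose in each system, with medians of 4.68 in the knockout and 4.53 with Yap; the median difference was 0.12 and became -0.32 under total counts. The difference was called for 3 upward and 1 downward, a share below that of all genes. Mki67, the proliferation marker, was at 134.3, 113.7 and 64.3 CPM in Lats1/2 KO against 1.25 to 6.51 CPM, and at 70.2, 67.8 and 36.2 CPM in ApoYap Dox, compared with 0.60 to 1.87 CPM. All treated libraries were above all controls, and the knockout and Dox libraries overlapped. The responses of Mki67 were 5.08 and 5.70, with a difference of -0.62 ± 0.62 (95% interval -1.91 to 0.67). The higher members were the kinetochore genes Spc25 (1.204), Spc24 (0.70) and Cenpa (1.04), with calls lost without any 1 of 2, 8 and 10 of the 14 libraries and all lost under total counts (0.77, 0.26 and 0.62); net of the BL/6 controls Cenpa had 1.89. The lower one was the chromosomal passenger gene Incenp (-1.28), whose call was lost without Lats1/2 flox ctrl 4 (-0.93) and net of the BL/6 controls (-0.55).

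DNA replication genes rose in both systems too. Of 48 S phase genes, 37 rose in the knockout and 38 with Yap, and the medians were 1.46 and 1.91 with a median difference of -0.45. None had a higher difference and 4 a lower one (8.33%), shares below the 17.4% and 12.4% of all genes. The 4 were Pola1 (polymerase alpha, -1.21, adjusted p = 0.00323), Chaf1b (chromatin assembly, -2.29, adjusted p = 0.0181), the cell cycle factor gene E2f1 (-0.95, lost without any 1 of 4 libraries) and thymidine kinase gene Tk1 (-0.86, lost without ApoYap Dox 2). None of these 4 kept its call net of the BL/6 controls: Pola1 had -0.87 (adjusted p = 0.0965), Chaf1b -1.27 (adjusted p = 0.349), E2f1 -0.94 (adjusted p = 0.0849) and Tk1 -0.32 (adjusted p = 0.512). Pcna, the replication clamp, rose by 1.46 and 1.84; its difference was called under total counts (-0.82, adjusted p = 0.00997). For Cdkn1a, the p21 cell cycle inhibitor, levels were 465.9, 413.2 and 260.7 CPM in Lats1/2 KO, 189.5, 186.6 and 143.4 CPM in ApoYap Dox, 36.3 to 187.4 CPM in the flox controls and 17.7 to 51.6 CPM in the ApoYap controls. The difference of its responses was -0.08 (95% interval -1.45 to 1.29). The virus alone raised Cdkn1a in BL/6 mice by 3.29 (adjusted p = 0.00741), and net of the BL/6 controls its knockout response was -1.05 and its difference -4.74 (adjusted p = 0.000373).

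Some genes had close responses and a narrow interval of the difference. Annexin A5 (Anxa5, chr3:36448923-36475894), a phospholipid-binding protein, was at 395.1, 312.4 and 325.5 CPM in Lats1/2 KO against 47.6 to 66.6 CPM, and at 371.2, 373.5 and 279.9 CPM in ApoYap Dox, compared with 55.7 to 61.7 CPM. Treated libraries overlapped each other and were all above the controls. The responses were 2.67 and 2.52, and the difference was 0.15 (95% interval -0.29 to 0.58). Myh9, the non-muscle myosin heavy chain, rose by 1.78 and 1.51, and the histone acetyltransferase gene Hat1 by 1.47 and 1.83, where the difference was called under total counts (-0.79, adjusted p = 0.0058). Among genes that fell, the sodium pump subunit gene Atp1b1 had -1.36 and -1.53 and the steroid dehydrogenase gene Hsd17b11 -1.25 and -1.50. Igfbp4 and Fgfr3 are less clear cases, with -1.14 and -1.73, and -1.11 and -1.66: their differences, 0.59 and 0.54, were called when 1 of 3 and 1 of 4 libraries, respectively, was left out, and that of Igfbp4 also with DESeq2 (0.55, adjusted p = 0.0494) and limma voom (0.51, adjusted p = 0.0347).

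**Figure D2:**
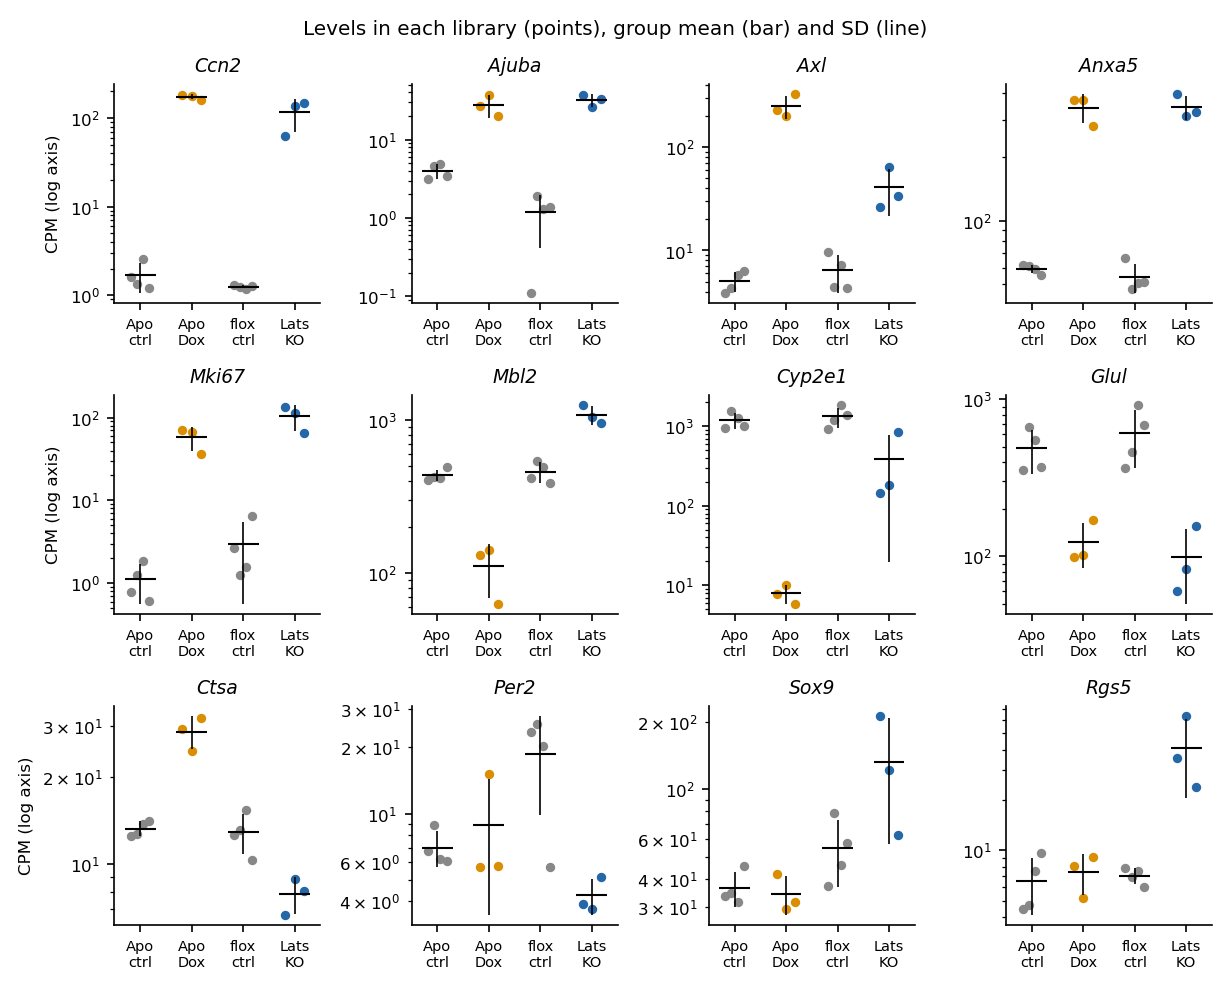
CPM on a log axis of 12 genes in the 4 groups; each point is a library, the bar the mean and the line the SD. Anxa5 and Mki67 reached overlapping levels in both treated groups. Ccn2 was far above its controls in both, with all knockout libraries below all Dox libraries. Mbl2, Cyp2e1 and Ctsa also separated the treated groups.

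Metabolic genes of mature hepatocytes fell much less in the knockout than with Yap. These falls hold relative to the typical gene: under total counts alone 572 genes were called lower in the knockout, against 2258 with TMM. Among all genes 17.4% were lower in the knockout and 32.0% with Yap. A higher difference was called for 17.4% of all genes and a lower one for 12.4%. Of 54 cytochrome P450 enzymes, which oxidise drugs, steroids and fatty acids, 27 fell in the knockout and 45 with Yap; the medians were -0.72 and -2.86, and 37 had a higher and 1 a lower difference (median 1.92; 1.76 with genes at the detection floor set to their bound). The list median per library was -0.87, -1.01 and -0.26 in Lats1/2 KO and -2.54, -2.47 and -2.89 in ApoYap Dox, each against its own controls, so no library of one system reached the other. For 43 of these genes all knockout libraries were above all Dox libraries, against 30.1% of all genes. Phase II conjugation enzymes gave a median difference of 1.34 (30 of 41 higher), and urea cycle and amino acid genes 1.36 (49 of 56 higher). In that last list all 56 members fell with Yap and 43 in the knockout.

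Genes for plasma proteins and lipid handling followed the same order. The counts of these lists stand against 17.4% of all genes with a higher and 12.4% with a lower difference. Of 36 secreted plasma proteins, 32 had a higher difference (median 1.17), and 33 of 41 complement and coagulation genes did (1.41). For cholesterol synthesis it was 22 of 26 (1.44), for fatty acid and triglyceride synthesis 22 of 27 (1.58), for fatty acid oxidation 30 of 43 (1.08) and for bile acid genes 24 of 33 (1.27). Apolipoprotein gene Apoa2 was at 3102, 2471 and 5224 CPM in Lats1/2 KO against 8662 to 9089 CPM, and at 163.7, 279.4 and 134.0 CPM in ApoYap Dox, compared with 8235 to 8867 CPM. The control levels overlapped, and each treated group was apart from the rest. The difference for Apoa2 was 4.16 ± 0.29 (adjusted p = 1.5e-10). Fabp1 (chr6:71199827-71205023), the liver fatty acid binding protein, showed the same with a difference of 5.11 ± 0.33 (adjusted p = 4.41e-11): 1047, 1186 and 1673 CPM in the knockout, 36.3, 70.6 and 30.7 CPM in ApoYap Dox and 2704 to 4868 CPM in all controls.

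Individual enzymes gave the same picture. The urocanate hydratase gene Uroc1 fell in both systems (-0.93 in the knockout and -3.90 with Yap), as did the arginase gene Arg1 (-1.36 and -3.15). The kynurenine enzyme gene Kmo had -0.23 (adjusted p = 0.188) and -2.77, with a difference of 2.54 (adjusted p = 6.73e-10). Transthyretin gene Ttr fell (-1.64 and -3.73), and so did complement gene C8g (-0.91 and -4.17), farnesyl diphosphate synthase gene Fdps (-0.99 and -3.20), fatty acid synthase gene Fasn (-1.52 and -4.22) and the lipogenic gene Thrsp (-2.74 and -7.55). The bile salt pump gene Abcb11 fell (-1.11 and -3.30), and the uptake transporter gene Slco1a1 likewise (-0.95 and -5.39). Albumin (Alb) had -0.51 and -0.92 (0.00087 for the latter under total counts), and its difference of 0.41 was not called (adjusted p = 0.181). Cyp7a1, the enzyme that limits the rate of bile acid production, had -1.47 and -2.73 with an interval of the difference from -0.94 to 3.47.

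A few members of these lists went the other way. In the plasma protein list the thyroxine carrier gene Serpina7 had -0.34 and 1.35 (difference -1.69, a call lost without any 1 of 10 libraries; -2.81 net of the BL/6 controls). Its untreated strains differed by 1.76 (adjusted p = 0.0125). In the complement list properdin, Cfp, which white blood cells make, had 2.68 and 5.598, and in the P450 list the oxysterol hydroxylase gene Cyp39a1 had -0.69 and 0.25 (lost without any 1 of 5 libraries, with untreated strains differing by 0.92). In the periportal list the lysosomal protease gene Ctsc had -0.10 and 2.38. The organic anion transporter gene Slco1a4, of the bile acid list, had 0.10 and 1.88, and in the fatty acid oxidation list Acot2 had 2.25 and 4.22, Acot3 -1.06 and 1.93 and Crat -0.57 and 0.42, the last 2 with calls lost without any 1 of 9 and 7 libraries. Net of the BL/6 controls the differences of Slco1a4 (-1.11), Acot2 (-1.17) and Acot3 (-1.97) were not called, and the untreated strains differed for Slco1a4 (0.99) and Crat (0.78). The hormone gene Fgf21 had 3.54, 3.71 and 3.96 CPM in ApoYap Dox, over controls at 0.10 to 0.67 CPM, and at 0.34 to 0.48 CPM in Lats1/2 KO against 0.79 to 2.19 CPM. The groups did not overlap in either system, the knockout response of -1.59 was not called (adjusted p = 0.0627) and the difference was -5.00 ± 0.92 (adjusted p = 0.000183).

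Transcription factors that maintain hepatocyte identity showed a smaller gap. Of 32, 11 fell in the knockout and 23 with Yap, and the medians were -0.55 and -1.20. A higher difference was called for 11 (34.4%) and a lower one for 3 (9.38%), against 17.4% and 12.4% of all genes. Hnf4a, a nuclear receptor central to hepatocyte identity, fell (-0.63 and -1.27), and its difference of 0.64 (adjusted p = 0.0207) lost its call without ApoYap Dox 3 or Lats1/2 KO 3 (0.51 to 0.77 over all omissions), under total counts (0.20, adjusted p = 0.452) and net of the BL/6 controls (0.50, adjusted p = 0.165). The bile acid sensing repressor gene Nr0b2 had -0.64 (adjusted p = 0.163) and -6.01, a difference of 5.37, and Creb3l3, a membrane-bound lipid regulator, fell (-0.63 and -2.39). The lower members were Foxa3, Nr1h3 and Cux2, a repressor known from female liver with 1.12 and 5.20 (difference -4.08; -3.15 without Lats1/2 flox ctrl 4, where the call was lost, and -6.74 net of the BL/6 controls). Nr1h3, which encodes the oxysterol receptor LXR alpha, fell by 0.35 in the knockout and rose by 0.37 with Yap (difference -0.73, adjusted p = 0.00353), though its knockout value was 0.12 under total counts. Nr1h3 is also made by macrophages.

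Genes of both zones of the liver lobule fell less in the knockout. Pericentral genes had medians of -1.14 and -3.19 (23 of 37 with a higher difference, none lower). Periportal genes had -0.93 and -2.11 (24 of 32 higher, 1 lower). Of all genes, 17.4% had a higher and 12.4% a lower difference. Cyp2e1 (chr7:140763739-140774987), a pericentral P450, was at 144.3, 180.9 and 840.3 CPM in Lats1/2 KO against 915.1 to 1828 CPM, and at 7.80, 10.1 and 5.89 CPM in ApoYap Dox, compared with 962.5 to 1550 CPM. Treated libraries were below all controls in both systems, and Lats1/2 KO 3 was closest to the controls. Its difference was 5.45 ± 0.67 (adjusted p = 4.17e-06). Glul, glutamine synthetase of the innermost pericentral cells, did not follow: it was at 60.2, 82.7 and 155.2 CPM in the knockout and at 99.6, 102.4 and 170.2 CPM in ApoYap Dox, with controls from 355.0 to 914.2 CPM. Its responses were -2.61 and -1.97 and its difference -0.64 (95% interval -1.64 to 0.36). Cyp2f2, a periportal P450, fell (-0.63 and -3.80).

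Male-biased liver genes had the largest median difference of the 41 lists, 3.01, with medians of -1.27 and -4.30 and 30 of 41 genes higher in the difference and none lower. Of the 10 highest differences, Hsd3b5, a steroid dehydrogenase gene of male liver, was at 10.8, 15.3 and 45.9 CPM in Lats1/2 KO against 58.8 to 179.6 CPM, and at 0.40, 0.18 and 0.24 CPM in ApoYap Dox, compared with 79.0 to 148.0 CPM. Every treated library was below its controls, and the Dox libraries were near the detection limit. Cyp4a12b, a male-biased fatty acid hydroxylase gene, was at 68.0, 63.1 and 138.7 CPM in the knockout, overlapping its controls at 96.6 to 177.1 CPM, and at 1.16, 1.13 and 0.82 CPM in ApoYap Dox. Its difference was 6.54 ± 0.48 (adjusted p = 2.31e-09). Sult2a8, Ugt2b38 and Nat8f5, genes for conjugating or acetylating enzymes, had 6.56, 6.55 and 6.04, and the urinary protein gene Mup2 and the P450 gene Cyp2a5 each had 5.98. The remaining ones were the receptor genes Chrna4 (6.53) and Scara5 (5.89), and Cyp2c40 (7.02), which is in the female-biased list. For Cyp2c40 the untreated strains already differed, by -2.92 (adjusted p = 0.00776), and limma voom did not call its difference (6.68, adjusted p = 0.0918). The female-biased list, with 15 genes tested, had medians of 0.04 and 1.06 and a median difference of -1.14. In it 4 genes had a higher difference (26.7%) and 5 a lower one (33.3%), against 17.4% and 12.4% of all genes. Reads of the Mup, Cyp2c, Cyp4a and Ugt2b families may be shared between close copies.

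Transcripts of the respiratory chain fell less in the knockout as well, relative to the typical gene. Over all genes, 572 were called lower in the knockout under total counts alone, against 2258 with TMM. Of 8 protein-coding transcripts of the mitochondrial genome tested, 7 had a higher difference (medians -0.67 and -2.08). Of 74 nuclear respiratory chain genes 64 did (medians -0.43 and -1.22). None was lower in either list, and among all genes 17.4% were higher and 12.4% lower. The NADH dehydrogenase transcript mt-Nd2 fell (-0.71 and -2.59). The cytochrome c gene Cycs had -0.08 (adjusted p = 0.656; 0.39 under total counts) and -1.67, and the complex III gene Uqcrh fell (-0.57 and -1.57).

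Cytosolic ribosomal protein genes went the opposite way. Of 73, 63 rose with Yap and none rose in the knockout, where 5 fell, with medians of 0.59 and -0.06. A lower difference was called for 56 and a higher one for none, against 12.4% and 17.4% of all genes. For 70 of them all knockout libraries were below all Dox libraries, against 28.3% of all genes. Rps29, of the small subunit, was at 412.7, 502.7 and 406.3 CPM in Lats1/2 KO, within its controls at 411.7 to 498.2 CPM except for small excesses at each end. With doxycycline, the ApoYap libraries were at 1170, 1098 and 1189 CPM, above its controls at 479.8 to 551.8 CPM. Its difference was -1.20 ± 0.18 (adjusted p = 1.68e-05), and Rps28 and Rpl22 had -0.75 and -0.69. Under total counts the knockout values of these 3 genes were above 0 (0.42, 0.23 and 0.24). Ribosomal protein genes also have many near-identical processed copies in the genome, so their counts depend on how reads were assigned.

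**Figure D3:**
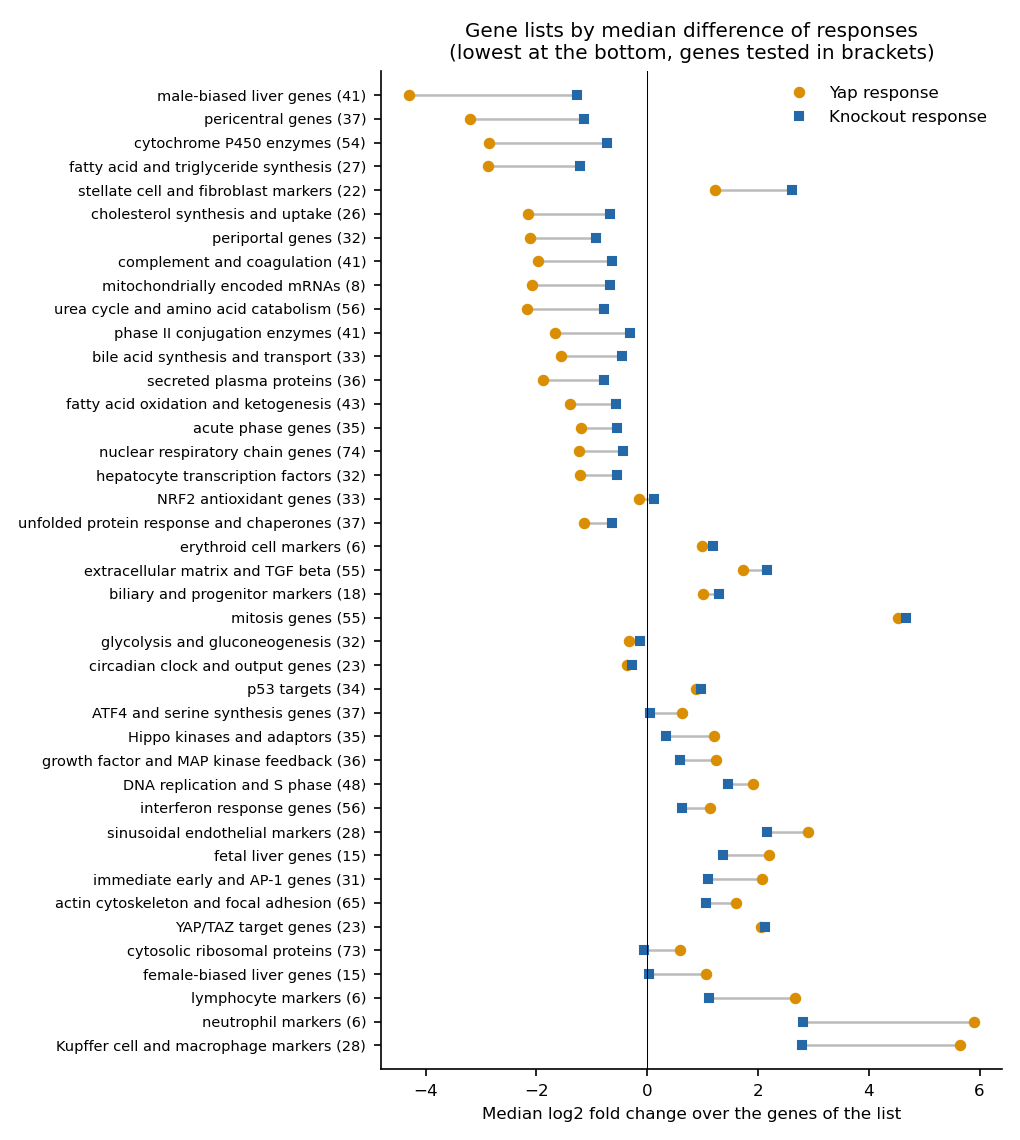
Median knockout response and median Yap response, in log2 units, of the members of 41 gene lists, ordered by the median difference between the responses. Points of the Yap response lie farther from 0 for the metabolic lists, while those of the mitosis list nearly coincide.

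Cytoskeletal genes also rose more with Yap. Of 65 actin and focal adhesion genes, 47 rose in the knockout and 51 with Yap. Of the 65, 25 had a lower and 4 a higher difference (median -0.55), against 12.4% and 17.4% of all genes. The Arp2/3 subunit gene Arpc1b rose by 1.01 and 3.16, and Arpc2 had 0.25 (adjusted p = 0.0523) and 1.30. The 4 higher were the non-muscle myosin gene Myh10 (1.02), the annexin partner gene S100a10 (0.83) and the tubulin genes Tuba1c (1.13) and Tubb2a (1.66); under total counts the Yap responses of S100a10 and Tuba1c were above 0 (0.54 and 0.52), and the calls of Myh10 (0.59) and S100a10 (0.38) were lost. Net of the BL/6 controls the calls of Tubb2a (0.80, adjusted p = 0.0804), Tuba1c (0.86, adjusted p = 0.0707) and S100a10 (0.62, adjusted p = 0.0689) were lost as well; doxycycline alone gave -1.26 for Tubb2a in BL/6 mice (adjusted p = 0.00188). Arpc1b and other members are abundant in white blood cells, so the macrophage values below bear on this list too; their part was not tested. Extracellular matrix and TGF beta genes, by contrast, had medians of 2.17 and 1.73 and a median difference of 0.19, which became -0.24 under total counts.

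Genes that moved in opposite directions were few. They numbered 54 at an adjusted p under 0.05 in both responses and in the difference: 26 (0.200%) were higher in the knockout and lower with Yap, and 28 (0.216%) the reverse. These counts were 15 without Lats1/2 flox ctrl 3 and 17 without Lats1/2 KO 1 for the first kind. For the second they were 13 without Lats1/2 KO 1, 14 without ApoYap ctrl 3 and 17 without Lats1/2 flox ctrl 2. Under total counts they were 51 and 14.

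Mbl2 (chr19:30232942-30239687), mannose-binding lectin of the complement system, had the largest difference of the first kind among the genes that qualified for naming. It was at 1241, 1041 and 950.7 CPM in Lats1/2 KO against 416.7, 539.0, 492.6 and 386.9 CPM in its controls. In ApoYap Dox it was at 130.5, 141.8 and 62.8 CPM against 407.3, 423.8, 419.2 and 491.8 CPM. The controls of both strains overlapped, all knockout libraries lay above them and all Dox libraries below. The responses were 1.23 (adjusted p = 1.25e-05) and -1.96, and the difference was 3.19 ± 0.27 (adjusted p = 2.83e-09). In BL/6 mice the virus alone gave 0.74 (adjusted p = 0.0698), and net of the BL/6 controls the difference was 2.61 (adjusted p = 2.09e-06).

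Cyp2c23 (chr19:44005022-44029208), an arachidonic acid epoxygenase, was at 450.4, 380.6 and 527.2 CPM in Lats1/2 KO against 247.7 to 304.6 CPM, and at 58.9, 81.5 and 35.5 CPM in ApoYap Dox, compared with 212.4 to 237.3 CPM. The groups did not overlap in either system. The difference was 2.59 ± 0.24 (adjusted p = 2.06e-08). The carboxylesterase gene Ces1g had 0.57 and -2.16 (difference 2.73), and here the untreated strains differed too, by 1.14 (adjusted p = 0.000346). Hsbp1l1 (2.08; untreated strains -0.96), the actin-binding protein gene Ablim3 (1.72) and the cell junction receptor gene Cxadr (1.72) were of the same kind; under total counts the Yap response of Cxadr was 0.09. Krt23, a keratin gene too low in counts for the naming rule and named after its values were seen, was at 3.46, 3.22 and 3.29 CPM in Lats1/2 KO and 0.29 to 0.58 CPM in ApoYap Dox, with a difference of 3.39 (adjusted p = 0.00529; 5.48 net of the BL/6 controls).

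Ctsa (chr2:164832873-164841032), the lysosomal protease cathepsin A, went the reverse way. It was at 6.66, 8.90 and 8.06 CPM in Lats1/2 KO against 12.6, 13.2, 15.4 and 10.4 CPM, and at 29.3, 24.7 and 32.1 CPM in ApoYap Dox, compared with 12.5, 12.7, 13.8 and 14.04 CPM. The control levels overlapped, and treated libraries lay on opposite sides of them. The difference was -1.82 ± 0.23 (adjusted p = 1.76e-06), and -1.92 net of the BL/6 controls. Tmem63a, a mechanosensitive channel gene, had -0.59 and 1.21, the protein phosphatase 1 regulator gene Ppp1r9a -0.51 and 1.13 (untreated strains 0.76), and Madd, a Rab exchange factor gene, -0.78 and 0.77. The peroxisomal transporter gene Abcd2 had -1.13 and 1.06, and the arrestin family gene Arrdc3 -0.79 and 0.78. Net of the BL/6 controls the Yap response of Abcd2 was -0.17, and the differences of Abcd2 and Arrdc3 were -0.60 (adjusted p = 0.596) and 0.07 (adjusted p = 0.946). Lysosomal proteins such as cathepsin A are also abundant in macrophages.

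**Figure D4:**
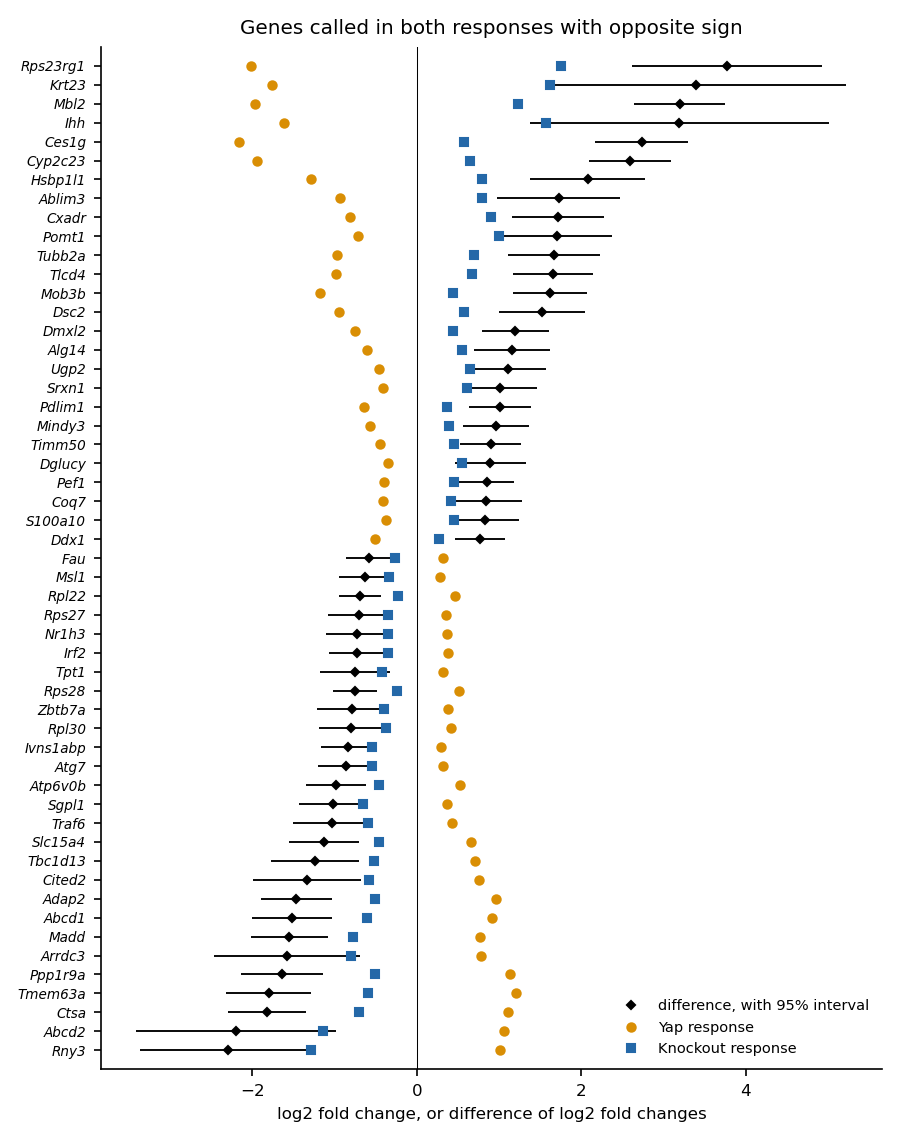
Knockout response, Yap response and their difference with its 95% interval, in log2 units, for 53 of the 54 genes called in opposite directions (26 higher and 27 lower in the knockout; 1 predicted gene is left out). The responses lie on opposite sides of 0 for every gene shown.

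Of the genes called in the same direction, few had the larger response in the knockout. Besides Ajuba and Spc25, the named ones that rose were the peptide-amidating enzyme gene Pam (3.27 and 1.42), Ccdc77 (2.23 and 0.80), the chemokine gene Ccl9 (2.34 and 1.17; difference 1.17 ± 0.23, adjusted p = 0.000316) and the secretory pathway isomerase gene Fkbp11 (1.51 and 0.43; untreated strains -0.74). The difference of Pam was not called net of the BL/6 controls (1.05), where Ccdc77 had 2.22, and under total counts those of Ccl9 and Fkbp11 were 0.73 and 0.65. The named ones that fell were the transporter gene Slc25a45 (-1.27 and -0.50), the hepatocyte factor gene Foxa3 (-1.13 and -0.49), Ttc7 (-0.92 and -0.35) and Rhobtb1 (-0.86 and -0.46). The Yap responses of these last 4 were above 0 under total counts, between 0.42 and 0.57. Their calls of the difference were lost without any 1 of 10, 4, 8 and 4 of the 14 libraries, and those of Slc25a45, Foxa3 and Ttc7 net of the BL/6 controls (-0.79, -0.40 and -0.53).

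Genes called in the knockout but not with Yap numbered 276 upward (2.13% of all genes) and 241 downward (1.86%). For 200 and 183 of these the difference was not called. It was called as well for 76 upward and 58 downward, from which the genes below are named. Rgs5 (chr1:169655501-169695813), a G protein regulator of pericytes, was at 35.5, 63.1 and 23.8 CPM in Lats1/2 KO against 6.02 to 7.79 CPM. With doxycycline, the ApoYap libraries were at 8.02, 5.16 and 9.07 CPM, within the spread of its controls at 4.45 to 9.63 CPM. The difference was 2.34 ± 0.69 (adjusted p = 0.014), and net of the BL/6 controls it was 1.64 (adjusted p = 0.186). The collectin genes Colec11 (1.86) and Colec10 (1.84) and the laminin gene Lamb1 (1.59) followed, with calls lost without any 1 of 12, 7 and 9 libraries, under total counts and net of the BL/6 controls. Downward, besides Per2 and Lats1, they were the synaptic priming factor gene Unc13b (-1.76 and -0.17; difference -1.59, adjusted p = 0.00324; Yap response 0.76 under total counts, untreated strains 1.16) and the autophagy gene Atg10 (-1.54 and -0.34; difference -1.20, lost without any 1 of 6 and net of the BL/6 controls).

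Rgs5, Colec11 and Colec10 are also made by hepatic stellate cells, the retinoid-storing pericytes of the liver. Rgs5 and Colec11 are themselves members of the marker list of that cell type. They are therefore among its upward calls given next, and the list is not separate evidence for them. Of 22 stellate and fibroblast markers tested, 21 rose in the knockout and 11 with Yap, with medians of 2.61 and 1.22. The difference was called for 4 upward and 1 downward (18.2% and 4.55%, the first close to the 17.4% of all genes) and had a median of 1.46, which was 0.91 without Lats1/2 KO 2. The summed level of the list was 345 to 1163 CPM in Lats1/2 KO, 367 to 589 in ApoYap Dox, 80.1 to 98.0 in the flox controls and 72.9 to 161 in the ApoYap controls, without TMM scaling, so the treated groups overlapped. Thy1 had no counts in either control group. Lrat, the retinol esterifying enzyme of stellate cells, had 2.29 and 0.17 (difference 2.13, lost without any 1 of 6 libraries and under total counts), Ngfr, the nerve growth factor receptor of such cells, 3.54 and 0.54 (difference 3.00, adjusted p = 0.00913) and the collagen gene Col1a1 -0.12 and 1.14 (lost without any 1 of 9). Lrat (1.97) and Ngfr (2.37, adjusted p = 0.135) were not called net of the BL/6 controls. Fewer cells of a type and less RNA per cell cannot be told apart in bulk samples, and the part of stellate cells in these results was not tested.

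Sox9 (chr11:112782224-112787760), a transcription factor of bile duct cells and of hepatocytes that take on duct features, was at 210.9, 122.1 and 62.3 CPM in Lats1/2 KO against 37.0, 78.5, 45.9 and 57.7 CPM. In ApoYap Dox it was at 42.1, 29.4 and 31.6 CPM against 33.5, 34.5, 31.7 and 45.8 CPM. The knockout overlapped its controls through Lats1/2 KO 3, and the Yap groups overlapped. The responses were 1.26 (adjusted p = 0.00346) and -0.08, but under total counts the Yap response was 0.84. The difference of 1.34 ± 0.45 (adjusted p = 0.0301) lost its call without any 1 of 6 libraries, with 0.84 at the lowest, without Lats1/2 KO 1. It was 0.90 (adjusted p = 0.117) under total counts and 0.54 (adjusted p = 0.532) net of the BL/6 controls. Of the duct cell genes, Krt7 had 5 counts in all knockout libraries together and 21 in ApoYap Dox, Krt19 12 and 31, and Epcam 21 and 23, so these markers stayed near the detection limit.

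In the biliary and progenitor list the shares were close to the 17.4% and 12.4% of all genes: 3 of 18 (16.7%) had a higher difference and 3 a lower one (16.7%). The higher were Sox9, Krt23 and the developmental factor gene Onecut2 (0.67). The call of Onecut2 was lost without ApoYap Dox 3 or Lats1/2 KO 3, and under total counts, where it was 0.22. It was also lost net of the BL/6 controls (0.73, edgeR adjusted p = 0.0509). The Notch ligand gene Jag1 rose by 1.09 and 3.74, osteopontin gene Spp1 by 3.24 and 5.398 (a difference whose call was lost without Lats1/2 flox ctrl 4 and net of the BL/6 controls) and galectin 3 gene Lgals3 by 3.11 and 6.24; the last 2 are also abundant in macrophages. Among 15 fetal liver genes, 2 had a higher and 5 a lower difference (13.3% and 33.3%). The higher were the fetuin gene Ahsg (0.79, untreated strains -0.73) and the retinal dehydrogenase gene Aldh1a1 (1.02, lost without Lats1/2 KO 3). Under total counts neither was called (0.34 and 0.57), and Aldh1a1 was not called net of the BL/6 controls (0.48). The fetal proteoglycan gene Gpc3 rose by 6.43 and 8.76 (difference -2.33, adjusted p = 0.00718; -1.99, adjusted p = 0.13, net of the BL/6 controls). The other lower ones were the desaturase gene Scd2 (-1.76), Peg3 (-1.32), Hmga2 (-3.15) and Meg3 (-4.02), the last 3 with calls lost without any 1 of 2, 9 and 5 libraries; Peg3 and Hmga2 also lost theirs net of the BL/6 controls. Alpha-fetoprotein gene Afp rose by 1.38 and 1.90 with a difference of -0.52 (95% interval -1.61 to 0.57).

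Macrophage markers rose less in the knockout than with Yap. All 28 tested Kupffer cell and macrophage markers rose in the knockout and 27 with Yap, with medians of 2.79 and 5.64. A lower difference was called for 23 and a higher one for none, against 12.4% and 17.4% of all genes. Without TMM scaling the summed level was 1192 to 3170 CPM in Lats1/2 KO and 16266 to 28511 CPM in ApoYap Dox, against 166 to 422 and 157 to 325 CPM in the controls. The knockout libraries were above all controls and below all Dox libraries, and no macrophage marker was at 0 in any group. The resident macrophage genes Timd4 (2.78 and 6.24) and Cd163 (2.53 and 5.55) and the monocyte receptor genes Cx3cr1 (2.08 and 7.13) and Ccr2 (2.81 and 7.32) followed the list. The samples are labelled as hepatocytes isolated by low-speed spins and sorted, but the labels do not name the sorting gate. How many other cells remained was not tested.

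Genes of white blood cells stood among the 10 lowest differences that qualified for naming. Mmp9, a matrix protease of neutrophils and macrophages, was at 0.53 to 2.94 CPM in the 3 Lats1/2 KO libraries, overlapping its controls at 0.11 to 1.10 CPM. With doxycycline, the ApoYap libraries were at 80.6, 79.0 and 133.8 CPM against 0.28 to 0.70 CPM. Its difference was -6.09 ± 0.87 (adjusted p = 1.46e-05). The others were the lipoprotein phospholipase gene Pla2g7 (-5.57), Cx3cr1 (-5.05), the kinase gene Syk (-4.65), Ms4a6b (-4.63), Ccr2 (-4.51), Akna (-4.36), Hacd4 (-4.35), Igsf6 (-4.33) and Adamdec1 (-4.25). Counted without the listed marker genes of other cell types, the differences called were 2257 higher and 1575 lower. This count left out only the listed genes, without a new fit. Other genes of white blood cells stayed in it, so it cannot show the part of these cells, which was not tested.

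Sinusoidal endothelial markers also rose in both treatments. They had medians of 2.17 and 2.90. Of 28, only the scavenger receptor gene Mrc1 (1.96 and 4.35), which macrophages also make, had a called difference, against 29.8% of all genes. Their summed level was 1148 to 2959 CPM in Lats1/2 KO and 2678 to 4923 CPM in ApoYap Dox, against 260 to 597 and 280 to 537 CPM. The endothelial cadherin gene Cdh5 had 2.72 and 4.34, with a difference of -1.62 (adjusted p = 0.0773) that was called without Lats1/2 KO 2 and under total counts (-2.05, adjusted p = 0.0303). Neutrophil markers summed to 328 to 938 CPM with Yap against 3.59 to 12.7 CPM, but to 5.57 to 114 CPM in the knockout against 5.61 to 7.04 CPM, so that 1 knockout library lay below its controls, and Ly6g had no counts in any of the 4 groups. Of 6 lymphocyte and 6 erythroid markers, none had a called difference. Hepatocyte markers summed to 73330 to 76779 CPM in Lats1/2 KO, overlapping the flox controls at 73026 to 83164 CPM. In ApoYap Dox they summed to 59693 to 80073 CPM, below all ApoYap controls at 81576 to 96881 CPM.

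**Figure D5:**
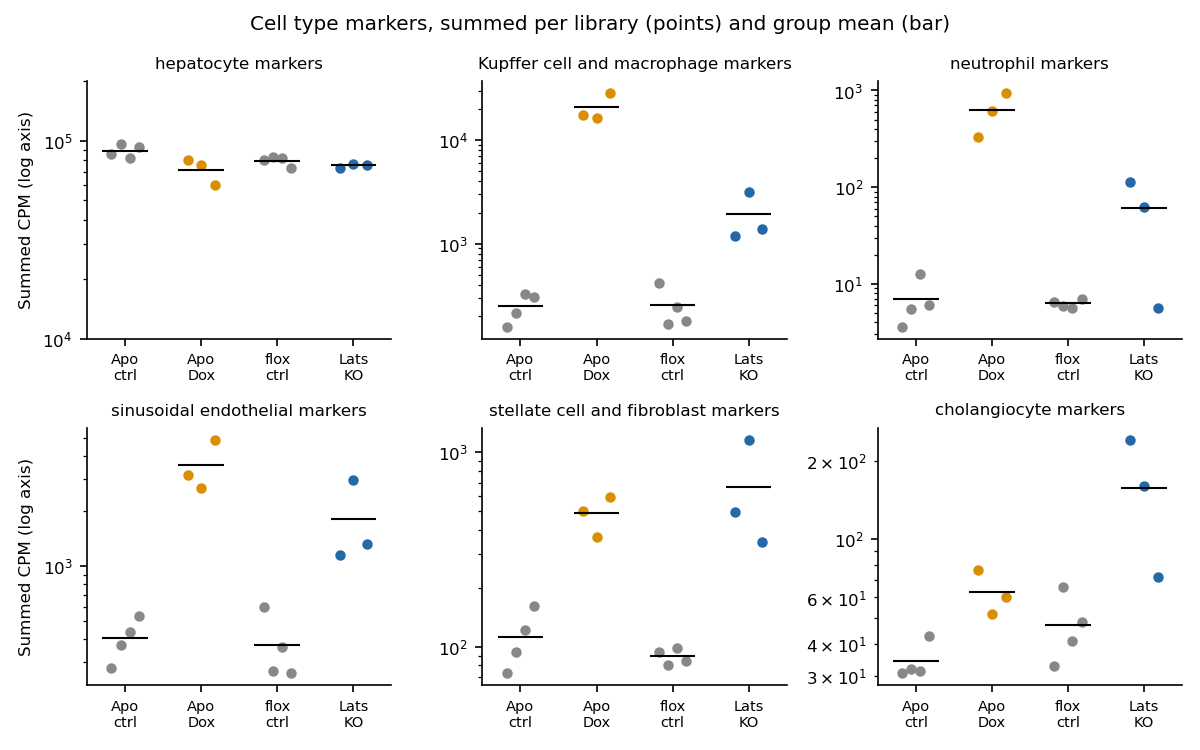
Summed CPM without TMM scaling, on a log axis, of the markers of 6 cell types in each library of the 4 groups; points are libraries and bars are means. Macrophage markers place the Lats1/2 KO libraries between the overlapping controls and the ApoYap Dox libraries, and stellate markers reach overlapping levels in both treated groups. Hepatocyte markers of Lats1/2 KO overlap those of the flox controls, while those of ApoYap Dox lie below all ApoYap controls.

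Circadian clock and output genes had no common direction. Of 23, 7 had a higher and 5 a lower difference (30.4% and 21.7%, against 17.4% and 12.4% of all genes), with a median of -0.01. Those higher included the activators Arntl (1.08), Clock (0.91; Yap response -0.84, and 0.08 under total counts) and Npas2 (3.30), the repressors Cry1 (1.76) and Nfil3 (2.38), and the nuclear receptor Rora (2.16; knockout response -0.03, and 0.44 under total counts). Those lower were Per2, Per3 (-3.06), Tef (-1.64), Usp2 (-2.50) and Ciart (-3.33, lost without any 1 of 8 libraries). Per2 (chr1:91415982-91459324), a period gene of the negative arm, was at 3.89, 3.70 and 5.15 CPM in Lats1/2 KO against 23.4, 25.4, 20.4 and 5.72 CPM. In ApoYap Dox it was at 5.75, 15.2 and 5.79 CPM against 6.78, 8.89, 6.23 and 6.12 CPM. Lats1/2 flox ctrl 4 stood near the ApoYap controls, below the other flox controls. The difference was -2.47 ± 0.57 (adjusted p = 0.00229), and the untreated strains differed by 1.41 (adjusted p = 0.0194). Arntl fell with doxycycline alone in BL/6 mice (-1.57, adjusted p = 0.00541), and net of the BL/6 controls its difference was -0.35; its call was also lost without ApoYap ctrl 2, ApoYap Dox 2 or Lats1/2 KO 1, and under total counts (0.63). Further calls lost net of the BL/6 controls were those of Cry1 (1.07, adjusted p = 0.142), Clock (0.51, adjusted p = 0.0938), Tef (-0.89, adjusted p = 0.242), Per3 (-2.19, adjusted p = 0.107) and Ciart (-3.05, adjusted p = 0.112). Clock was not called under total counts (0.46), and its untreated strains differed by 0.55 (adjusted p = 0.0044), as did those of Usp2 by 1.67 (adjusted p = 0.0367). The time of day of sampling is not in the labels, so its part was not tested.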

How the data were processed

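Hepatocytes of 25 samples were profiled with a 3′ mRNA kit (QuantSeq FWD). Per the submitters' processing notes, reads went through FastQC, cutadapt and STAR 2.6.1d against mm10 (GRCm38); which tool counted reads, with which annotation and strand setting, is not given in the sources used here. The authors deposited 1 table of counts, unscaled whole numbers. A 3′ count does not depend on gene length, and antisense, overlapping and near-identical genes are uncertain.

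Columns were matched to samples by name. Low genes were removed by filterByExpr (minimum count 10, total 15) of edgeR 4.0.16 in R 4.3.3, and libraries were scaled by TMM and fitted with glmQLFit (robust, 1 mean per group over all 25 libraries). Contrasts were tested with glmQLFTest and adjusted by Benjamini-Hochberg at 0.05. A standard error is the log2 value divided by the root of F, intervals are 95%, and the prior count was 0.125. A count was worth 0.0361 to 0.119 CPM. The intervals rest on the spread between libraries as estimated in that test, whereas floors (3 counts) cover counting error only. Coordinates came from GENCODE M21 (GRCm38), matched for 12742 genes, and promoters from RefSeq (7950 matched). In simulated counts for this difference, over 11534 genes, 48% of 100 genes changed by a fold of 2 and 83% of 100 changed by a fold of 4 were recovered. Only these genes were changed, in the knockout group alone, from a mean shared by all groups. In the data 29.8% of genes were called, so these rates do not measure recovery there.

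The members and gene lists were chosen with earlier results of these data known. Named genes, with a mean log2 CPM of 2 or more, a count above 3 in each group and no predicted, pseudo- or Y-linked gene, were the 10 highest and 10 lowest differences, the 6 largest opposite in each direction, the 6 largest with the same sign and a larger knockout response, the 4 largest called in the knockout only, the 4 largest shared with a half-width of at most 0.5, up to 4 members of each list by p, of which some are printed, and a fixed set of YAP, liver and marker genes. Others are named where a count is small. DESeq2 1.42.0, limma 3.58.1 voom, other scalings, filters and thresholds, the BL/6 controls and leaving out each library were the alternatives. The result for 1 gene is not reported here.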

Additional observations from a re-analysis of the deposited data

Results flagged for a closer look

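In 5 of 74 groups of 4 libraries, 1 library stood apart from the other 3 by more than Dixon's 95% critical value, which chance gives in about 1 in 20 groups. Cdkn1a was at 187.4 CPM in Lats1/2 flox ctrl 4 and at 36.3 to 51.7 CPM in the other flox controls. Cyp2c23 was at 247.7 CPM in Lats1/2 flox ctrl 3, against 300.4 to 304.6 CPM. Lats2 was at 13.7 CPM in Lats1/2 flox ctrl 3, against 12.95 to 13.06 CPM. Yap1 was at 46.9 CPM in ApoYap ctrl 4, against 41.0 to 41.9 CPM. The summed cholangiocyte markers, mostly Sox9, were at 42.8 CPM in ApoYap ctrl 4, against 30.8 to 32.0 CPM.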

How the results depend on the processing

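The calls of the difference were 2261 higher and 1602 lower. Total counts alone gave 1174 and 3653 for the difference, 5781 and 572 for the knockout and 8613 and 1638 for Yap; the cause was not tested. At an adjusted p under 0.01 the lower count was 844 for the difference and 1383 for the knockout. With a log2 value of at least 1, 1330 differences were higher, and 541 genes were lower in the knockout and 2396 with Yap. Tested against a fold of 1.5, the counts were 1087 and 699 for the difference, 1741 and 484 for the knockout, and 2662 lower with Yap. Net of the BL/6 controls the knockout counts were 1683 and 1484. Without BL/6 Dox 1 and 2 as well, chosen after seeing the data, 1019 differences were lower. Leaving out each library gave 1791 to 2355 higher and 1176 to 1773 lower differences, 1955 to 2789 higher and 1362 to 2364 lower genes in the knockout, and 4214 to 4677 higher and 3786 to 4191 lower genes with Yap. No call of the difference shared with the reported calls changed sign in any of these settings. Of 165 genes reported, 144 were called in the difference, and 36 of these lost the call without at least 1 library.

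Several values crossed 0. Under total counts the knockout response was 0.14 for Yap1, 0.12 for Nr1h3, 0.39 for Cycs, 0.42 for Rps29, 0.23 for Rps28, 0.24 for Rpl22 and 0.44 for Rora. The Yap response there was 0.50 for Lats1, 0.43 for Slc25a45, 0.42 for Foxa3, 0.57 for Ttc7, 0.45 for Rhobtb1, 0.0931 for Cxadr, 0.84 for Sox9, 0.76 for Unc13b, 0.54 for S100a10, 0.52 for Tuba1c, 0.00087 for Alb and 0.0779 for Clock. Net of the BL/6 controls the difference was -0.12 for Crim1, -0.35 for Arntl and 0.069 for Arrdc3. The knockout response was -1.05 for Cdkn1a, -0.000596 for Ms4a6b and 0.0832 for Arrdc3, and the Yap response was -0.17 for Abcd2, 0.35 for Arntl and 0.29 for Tubb2a. Without BL/6 Dox 1 and 2 as well, the difference was -0.37 for Arntl and 0.18 for Arrdc3. The knockout response was then -1.05 for Cdkn1a and 0.088 for Arrdc3, and the Yap response -0.40 for Abcd2, 0.37 for Arntl, -0.0898 for Arrdc3 and 0.68 for Tubb2a.

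Samples with the same replicate number did not deviate together: the correlations were -0.13, -0.24 and 0.02 between knockout and flox samples and 0.10, 0.05 and 0.16 between Dox and ApoYap samples. With the replicate block, 2188 differences were higher and 1488 lower.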

Other observations

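Stress and signalling lists are given here by counts, against 17.4% of all genes with a higher and 12.4% with a lower difference. Of 31 immediate early and AP-1 genes, 5 had a lower (16.1%, close to that of all genes) and none a higher difference, and 12 rose in both systems. Of 56 interferon response genes, 12 had a lower (21.4%) and 2 a higher difference (3.57%). Of 37 genes of the ATF4 response to amino acid shortage, 8 had a lower (21.6%) and 3 a higher difference (8.11%). Among them the stress factor gene Ddit3 had -0.70 (adjusted p = 0.0857) in the knockout and 1.81 with Yap, with a difference of -2.52 (edgeR, adjusted p = 0.000164). The untreated strains also differed for Ddit3, by 1.83 (flox above ApoYap, adjusted p = 0.000709), and the treated groups differed by -0.68 (knockout less Dox, adjusted p = 0.0926). Slc3a2, a subunit of amino acid transporters, had 0.25 (adjusted p = 0.102) and 1.34. The small heat shock protein gene Cryab had 0.67 (adjusted p = 0.0754) and 4.37, a difference of -3.69 (adjusted p = 2.18e-07). The MAP kinase phosphatase gene Dusp7 rose by 1.75 and 3.81, and the immediate early gene Ier5 had 0.89 (adjusted p = 0.0855) and 3.36.

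Of 34 p53 targets, 28 had no called difference, and the list medians were 0.97 and 0.88. In BL/6 mice given the virus alone the list median was 0.72. For acute phase genes, 11 of 35 had a higher (31.4%) and 3 a lower difference (8.57%), with a median of 0.84, and the median net of the BL/6 controls was -0.18.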
